A study of Mus musculus with 2 samples.

Results

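The 7 genes described here encode ion channels of the muscle fibre membrane: the potassium channel genes *Kcnq5*, *Kcnn3*, *Kcnc4*, *Kcnj2* and *Kcna7*, the sodium channel gene *Scn4a* and the chloride channel gene *Clcn1*. They were found by symbol among the 32285 genes of the count matrices, and all 7 were present in both. They were chosen by their role and with their measured ratios between the knockout and control libraries already known, so the ratios between the libraries below are a description of these libraries and nothing is supported by them. Single-nucleus RNA sequencing (snRNA-seq) counts RNA molecules of single nuclei by their unique molecular identifiers (UMIs). From each genotype, the tibialis anterior (TA) of both legs of 2 male C57BL/6 mice at 6 weeks of age gave the nuclei of 1 pooled library, sorted on a DNA stain. M-*Bcl6* KO mice were Myf6-Cre+ Bcl6 fl/fl and M-*Bcl6* WT mice were Myf6-Cre+ Bcl6 wt/wt littermates, so both carried the Cre, which is driven in muscle by the *Myf6* promoter.

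Each genotype is 1 library, so no difference between genotypes has a replicate check and none was tested. Every interval below is an exact 95% interval that covers counting error only. *Bcl6* UMIs in myonuclei were more numerous in the library labelled KO. The library labelled WT had 1485 and that labelled KO had 4843, at levels of 167.5 and 501.3 counts per 1000000 UMIs (CPM). Gene sums do not separate the floxed exons from the rest of the gene, so they do not check the deletion, and every direction below rests on the labels. The long non-coding RNA gene *Meg3* was seen in a larger part of the myonuclei labelled KO. Of the myonuclei with at least 1000 UMIs, 209 had a *Meg3* UMI and 2178 had none under the WT label, and 2581 had one and 435 had none under the KO label. The libraries held 11974138 and 12026013 UMIs in 3798 and 4096 barcodes, of which 3674 and 3944 were kept and 2415 and 3091 were myonuclei, with a median depth of 3127 and 2713 UMIs. Among all genes, 6987 reached 200 UMIs in these myonuclei, and their median log2 ratio of the library labelled KO over that labelled WT was -0.15. The libraries shared 6 barcode sequences.

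A muscle action potential starts when acetylcholine opens receptors at the neuromuscular junction (NMJ) and is carried along the fibre and into its transverse tubules by voltage-gated sodium channels. Potassium channels repolarize the membrane, and in skeletal muscle most of the resting conductance is that of chloride, which keeps the fibre from firing repetitively. Loss of the chloride channel causes myotonia, and mutations of the sodium channel or of the inward rectifier cause forms of periodic paralysis. Fast fibres are classed by their myosin heavy chain as IIb (*Myh4*), IIx (*Myh1*) and IIa (*Myh2*), and each myonucleus was placed here by the myosin gene that held most of its *Myh* UMIs.

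*Kcnq5* encodes KV7.5, a voltage-gated channel that carries a slowly activating, muscarine-sensitive potassium current. It is on chromosome 1 (GRCm38, 21398403 to 21961942, minus strand), spans 563.5 kb, and overlaps 3 predicted models on its strand and, across its start, a non-coding gene on the other strand in GENCODE M21, none of which has a row in the matrices. *Kcnn3* encodes SK3, a small-conductance channel opened by calcium that is best known in muscle from denervated and immature fibres. It lies on chromosome 3 (89520164 to 89675132, plus strand). *Kcnc4*, also on chromosome 3 (107438303 to 107459552, minus strand), encodes the fast voltage-gated channel KV3.4. *Kcnj2* encodes the inward rectifier Kir2.1, which holds the resting potential, and lies on chromosome 11 (111066164 to 111076821, plus strand). *Kcna7* on chromosome 7 (45405653 to 45409763, plus strand) encodes the voltage-gated channel KV1.7. *Scn4a* on chromosome 11 (106318592 to 106353288, minus strand) encodes NaV1.4, the sodium channel of the adult fibre, and *Clcn1* on chromosome 6 (42286685 to 42315756, plus strand) encodes the chloride channel ClC-1. The 3′ end of *Clcn1* overlaps the oppositely oriented gene *Fam131b*, and how strand was used in counting is not given in the sources used here.

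The stretches just before the start sites of 4 genes are shown because they set the pair of the 7 whose levels differed most between the libraries, *Kcnq5* and *Kcnn3*, beside a pair that stayed nearer to the median gene, *Kcnj2* and *Clcn1*. Each is the 250 bases before a RefSeq transcript start (GRCm38.p6), on the gene's strand, with E-boxes (CANNTG, the letters bound by myogenic factors) and MEF2-type letters (CTA and TAG with any 4 bases between) in capitals. They lie at chr1:21961943-21962192 for *Kcnq5*, chr3:89519914-89520163 for *Kcnn3*, chr11:111065914-111066163 for *Kcnj2* and chr6:42286435-42286684 for *Clcn1*.
Kcnq5: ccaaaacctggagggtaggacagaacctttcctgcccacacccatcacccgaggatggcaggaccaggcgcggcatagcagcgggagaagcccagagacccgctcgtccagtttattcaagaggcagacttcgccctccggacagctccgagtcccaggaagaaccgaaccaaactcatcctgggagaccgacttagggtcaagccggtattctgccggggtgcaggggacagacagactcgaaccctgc
Kcnn3: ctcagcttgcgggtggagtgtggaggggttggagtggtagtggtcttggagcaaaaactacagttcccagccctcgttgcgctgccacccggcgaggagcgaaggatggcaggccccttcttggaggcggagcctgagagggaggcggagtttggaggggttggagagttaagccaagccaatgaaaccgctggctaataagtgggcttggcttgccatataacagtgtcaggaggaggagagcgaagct
Kcnj2: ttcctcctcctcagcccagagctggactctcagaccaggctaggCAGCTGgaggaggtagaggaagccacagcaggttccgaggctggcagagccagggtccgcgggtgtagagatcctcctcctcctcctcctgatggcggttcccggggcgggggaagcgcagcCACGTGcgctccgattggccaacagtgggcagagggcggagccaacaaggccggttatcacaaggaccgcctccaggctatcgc
Clcn1: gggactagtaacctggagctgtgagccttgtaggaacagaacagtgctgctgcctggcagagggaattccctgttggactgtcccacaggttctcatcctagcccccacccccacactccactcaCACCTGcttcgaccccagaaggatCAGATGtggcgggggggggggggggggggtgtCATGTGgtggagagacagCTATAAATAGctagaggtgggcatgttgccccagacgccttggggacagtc
The *Kcnq5* and *Kcnn3* stretches held no match to either set of letters, and neither did a second *Kcnq5* window. *Kcnj2* held 2 E-boxes, and *Clcn1* held 3 E-boxes and 1 match to the MEF2-type letters. The windows of *Kcna7*, *Kcnc4* and *Scn4a* held 3, 1 and 0 E-boxes and are not printed, since they lie inside the longer GENCODE gene. *Kcna7* and *Scn4a* stayed nearer to the median gene than *Clcn1* did. The 7 genes did not divide by E-boxes as the 4 printed ones do. *Kcnc4*, with a log2 ratio of -1.21 between the libraries, held 1, and *Scn4a*, with -0.20, held none. A link between these letters and the ratios was not tested. Among all 32851 promoter windows of the table, 72.3% held an E-box on either strand and 3.69% held the MEF2-type letters. The letters TTCNNNGAA, which are shared by sites of BCL6 and of STAT factors, were in 8.30% of all windows and in none of the 8 windows of the 7 genes. Each of the 3 sets of letters reads the same on both strands, and a match is a description of these windows, not a binding site.

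Among the 7 genes, *Kcnq5* was the one whose level differed most between the libraries. In myonuclei it had 3724 UMIs, or 420.1 CPM, in the library labelled WT and 449 UMIs, or 46.5 CPM, in that labelled KO. The level was 9.04-fold lower in the library labelled KO, a log2 ratio of -3.18 (-3.32 to -3.03), and this was place 2 from the lowest among the 6987 genes. *Kcnn3* had 461 and 124 UMIs, or 52.0 and 12.8 CPM, with a log2 ratio of -2.02 (-2.32 to -1.73). *Kcnc4* had 189 and 89 UMIs, or 21.3 and 9.21 CPM, with a log2 ratio of -1.21 (-1.59 to -0.84).

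These 3 of the 7 genes were lower by 2-fold or more, and 2.68% of all 6987 genes were. None of the 7 was higher by 2-fold or more, which held for 3.06% of all genes. The median log2 ratio of the 7 genes was -0.46. Because the genes were listed with this contrast known, nothing is read from these shares.

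The other 4 genes stayed within 2-fold. *Clcn1* had 2443 and 1933 UMIs and a log2 ratio of -0.46 (-0.55 to -0.38), which was -0.32 relative to the median gene. *Kcnj2*, with -0.30 (-0.44 to -0.15), was -0.15 relative to it, and *Scn4a*, with -0.20 (-0.34 to -0.07), was -0.05 relative to it. *Kcna7* had 102 UMIs in each library and a log2 ratio of -0.12 (-0.53 to 0.29). The sign of *Kcna7* turned under the median-of-ratios scaling, to 0.02, and the direction of *Scn4a* was within counting error under both other scalings.

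Divided by exon length, *Kcnq5* and *Clcn1* stood close together in the library labelled WT, at 54.6 and 50.8 CPM per kb of exon. The library labelled KO had 6.05 and 36.9. *Kcnj2* had 16.3 and 13.3, *Scn4a* 14.9 and 13, *Kcnc4* 5.81 and 2.51, *Kcna7* 5.27 and 4.86, and *Kcnn3* 4.98 and 1.22 CPM per kb of exon. The kit tags RNA at its 3′ end, so UMIs need not grow with length, and this order is one scale among others. Per kb of gene span, *Kcnq5* had 0.745 CPM and *Clcn1* 9.48 CPM in the library labelled WT.

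**Figure D1:**
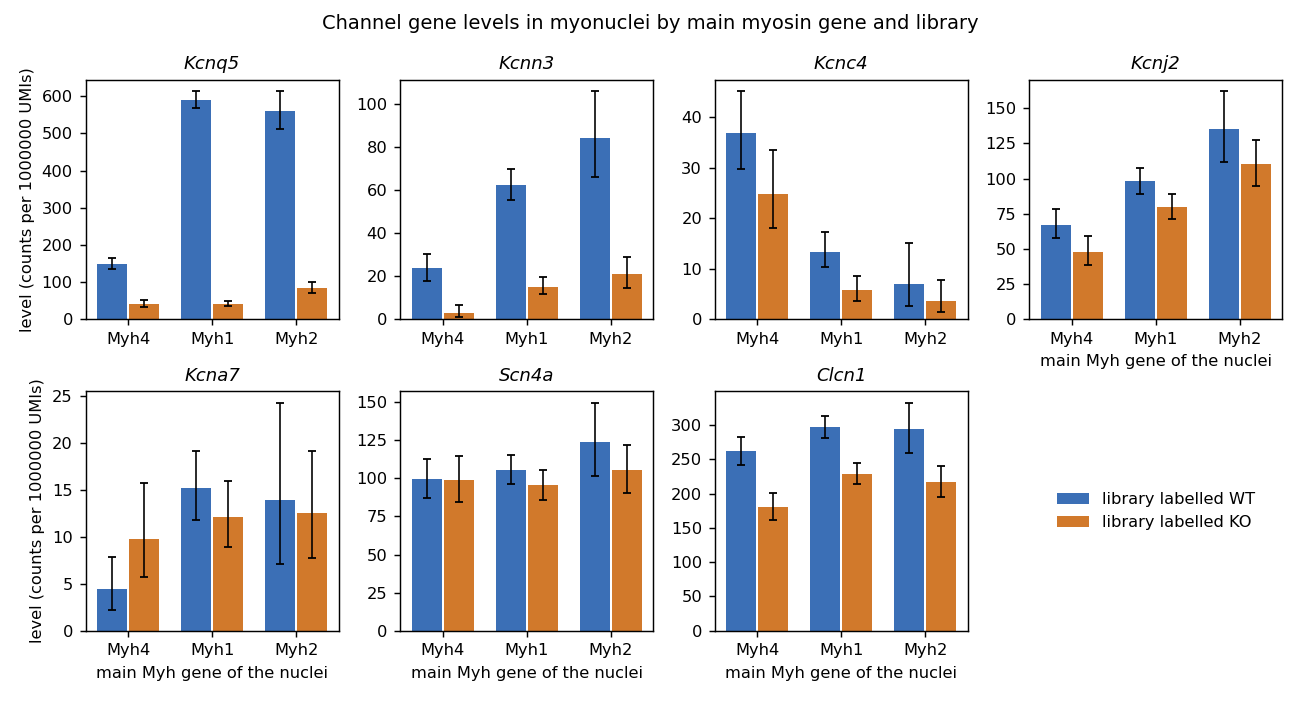
Levels of the 7 channel genes in CPM (vertical axes, starting at 0) in myonuclei with *Myh4*, *Myh1* or *Myh2* as main myosin gene, in the libraries labelled WT (blue) and KO (orange). Bars are summed levels and lines are exact Poisson 95% intervals for counting error. *Kcnq5* stood at 591.0 CPM in *Myh1* nuclei labelled WT and at 41.4 CPM in those labelled KO, while *Kcnc4* was the gene with its highest level in *Myh4* nuclei.

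Nuclei with *Myh4*, *Myh1* and *Myh2* as main myosin gene numbered 704, 1161 and 234 in the library labelled WT and 611, 1177 and 482 in that labelled KO. A further 314 and 802 myonuclei had no *Myh* UMI or a tie. *Myh7* was the main gene of 2 and 19 nuclei, which are not described as a type here. All myonuclei together had 5 and 326 *Myh7* UMIs. *Kcnq5* was a gene of the IIx and IIa nuclei in the library labelled WT. Its level was 148.7 CPM in *Myh4* nuclei, 591.0 in *Myh1* nuclei and 561.2 in *Myh2* nuclei. The log2 ratio of *Myh2* over *Myh4* nuclei was 1.92 (1.72 to 2.12), whereas *Myh2* and *Myh1* nuclei did not differ beyond counting error (-0.07, -0.22 to 0.07).

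The corresponding levels of *Kcnq5* in the library labelled KO were 41.0, 41.4 and 85.0 CPM. The *Myh1* and *Myh4* nuclei there stood at the same level within counting error, with a log2 ratio of 0.01 (-0.40 to 0.43). The ratio of the library labelled KO over that labelled WT was -1.86 (-2.25 to -1.49) in *Myh4* nuclei, -3.84 (-4.07 to -3.61) in *Myh1* nuclei and -2.72 (-3.00 to -2.45) in *Myh2* nuclei. The 3 intervals did not overlap, but they leave out the spread between nuclei, and whether the difference exceeds that between mice was not tested. With at least 80% of *Myh* UMIs from the main gene, 2 of them overlapped. These were -1.99 (-2.41 to -1.60) in *Myh4* nuclei and -2.51 (-2.81 to -2.21) in *Myh2* nuclei. Outside the junction clusters, 3 of 605 *Myh4* nuclei labelled KO held 53.5% of the 71 UMIs.

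Among the 5 large myonuclear clusters, which had been formed without the channel genes, *Kcnq5* was lower in the library labelled KO in 4. The log2 ratios there lay between -4.47 and -2.29. In the fifth, whose leading genes included *Actn3*, *Gpt2* and *Pfkfb3*, it had 81 and 58 UMIs, 53.0 and 55.1 CPM and a log2 ratio of 0.06 (-0.46 to 0.56). Of the 58 UMIs, 89.7% came from 3 of the 321 nuclei, and 26 UMIs came from a single nucleus. In the library labelled WT this cluster and the *Myh4*-led one, at 58.0 CPM, had the lowest *Kcnq5* levels of the 5.

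*Kcnq5* UMIs were gathered in a small part of the nuclei. Outside the junction clusters, 830 of 2375 nuclei labelled WT had at least 1 UMI, and the 266 nuclei with 5 or more held 67.6% of the 3433 UMIs. Of the nuclei labelled KO, 117 of 3050 nuclei had at least 1 UMI, and 17 nuclei with 5 or more held 57.6% of the 399 UMIs. Of *Clcn1*, which had 2372 and 1917 UMIs in the same nuclei, those with 5 or more held 12.1% and 5.11%.

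At an equal depth of 1000 UMIs per nucleus, *Kcnq5* was seen in 30.5% of *Myh1* nuclei labelled WT (27.9 to 33.3) and in 2.31% of those labelled KO (1.53 to 3.34). The shares were 33.8% and 4.83% in *Myh2* nuclei and 8.17% and 2.36% in *Myh4* nuclei. Without thinning they were 50.6% and 3.74% in *Myh1* nuclei, whose median depth was 3413 and 3067 UMIs. Among FAP-like nuclei, which are of another lineage, 0.983% (0.268 to 2.50) and 1.10% (0.228 to 3.19) had a *Kcnq5* UMI after thinning, at median depths of 1961 and 1739. The shares of *Myh4* and *Myh1* nuclei labelled KO lay within the interval of the FAP-like nuclei of their library, which rests on 3 of 272 nuclei. The summed levels of these *Myh4* and *Myh1* nuclei, 41 and 41.4 CPM, were above the 7.01 CPM of those FAP-like nuclei. FAP-like nuclei themselves had 16 and 5 *Kcnq5* UMIs, against 7.35 and 1.05 expected if free myonuclear RNA brought them, and 7 of the 16 lay in 1 nucleus.

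**Figure D2:**
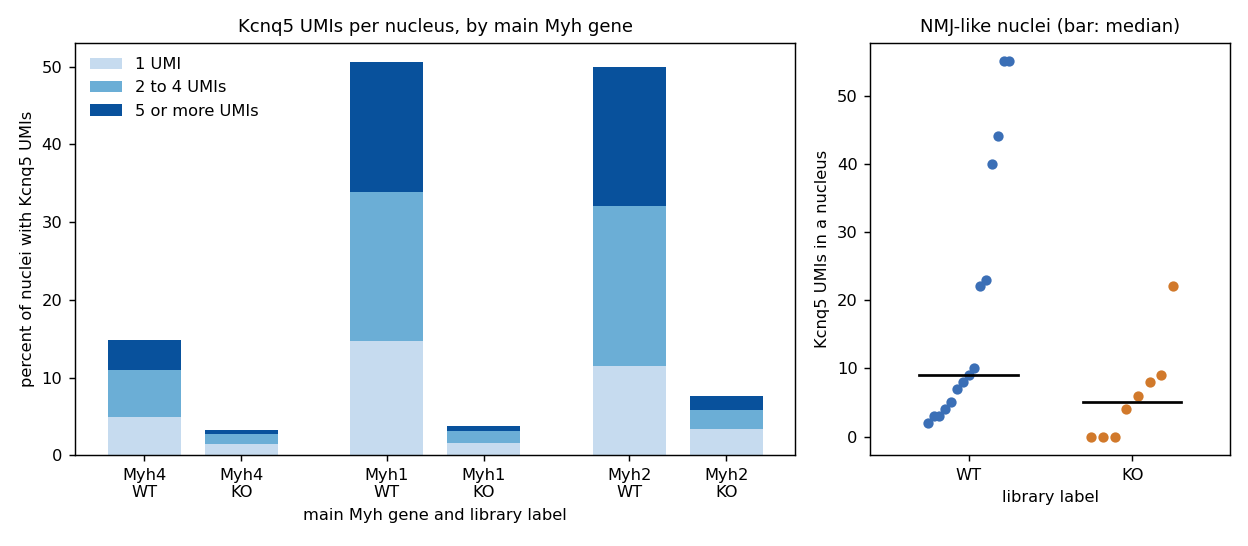
Left, percent of nuclei (vertical axis) with 1, 2 to 4, or 5 or more *Kcnq5* UMIs by main *Myh* gene and library label. Right, *Kcnq5* UMIs of each NMJ-like nucleus (points) in the libraries labelled WT and KO, with the median as a bar; the 15 nuclei labelled WT all had UMIs and 5 of the 8 labelled KO did.

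*Kcnn3* was higher in *Myh1* and *Myh2* nuclei than in *Myh4* nuclei in both libraries. It had 23.6 CPM in *Myh4*, 62.3 in *Myh1* and 84.5 in *Myh2* nuclei in the library labelled WT, and 2.89, 15.1 and 20.9 in that labelled KO. The *Myh4* level of the library labelled KO rested on 5 UMIs in 3 of 611 nuclei. The ratios between the libraries were -3.03 (-4.71 to -1.73), -2.04 (-2.47 to -1.64) and -2.01 (-2.64 to -1.41), with intervals that overlapped. In all 5 large clusters the *Kcnn3* level was lower in the library labelled KO.

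*Kcnc4* was highest in *Myh4* nuclei. Its levels in *Myh4*, *Myh1* and *Myh2* nuclei were 36.9, 13.4 and 6.94 CPM under the WT label and 24.8, 5.70 and 3.59 CPM under the KO label. *Myh2* nuclei were 5.31-fold below *Myh4* nuclei in the former and 6.92-fold below in the latter, on 6 UMIs in the *Myh2* nuclei of each. Between the libraries the log2 ratio was -0.57 (-1.13 to -0.03) in *Myh4* nuclei, -1.24 (-2.00 to -0.52) in *Myh1* nuclei and -0.95 (-2.85 to 0.95) in *Myh2* nuclei. The difference within a fibre type did not hold throughout. After thinning to 1000 UMIs the ratio in *Myh1* nuclei was -0.15 (-1.33 to 0.99) and that in *Myh4* nuclei -0.50 (-1.52 to 0.46), and under TMM scaling that in *Myh4* nuclei was -0.48 (-1.04 to 0.06). *Myh4* nuclei made up 29.2% of the myonuclei in the library labelled WT and 19.8% in that labelled KO. With the main *Myh* groups weighted equally, the *Kcnc4* ratio was -0.75 and was no longer past 2-fold.

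*Kcnj2* increased in order from *Myh4* to *Myh1* to *Myh2* nuclei in both libraries. Its levels were 67.3, 98.0 and 135.4 CPM under the WT label and 48.0, 79.5 and 110.1 CPM under the KO label. The *Myh2* over *Myh4* log2 ratio was 1.01 (0.65 to 1.36) and 1.20 (0.82 to 1.59). Neighbours in this order differed beyond counting error in each library.

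*Scn4a* and *Clcn1* were nearly even across fibre types. *Scn4a* had 99.4, 105.5 and 123.8 CPM in the library labelled WT and 98.8, 95.4 and 105.3 CPM in that labelled KO, and no pair of fibre types differed beyond counting error. *Clcn1* had 261.3, 297.3 and 293.9 CPM and 180.3, 229.1 and 216.6 CPM, and was lower in the library labelled KO in each type, with log2 ratios of -0.54, -0.38 and -0.44. *Kcna7* was low throughout, with 4.41, 15.2 and 13.9 CPM in the library labelled WT and 9.82, 12.1 and 12.6 CPM in that labelled KO. Its ratio in *Myh4* nuclei was 1.16 (-0.02 to 2.40) on 11 and 17 UMIs.

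Of the 7 genes, 4 had at least 200 UMIs in *Myh2* and *Myh4* nuclei together, namely *Kcnq5*, *Kcnj2*, *Scn4a* and *Clcn1*. *Kcnq5* and *Kcnj2* were higher by 2-fold or more in *Myh2* nuclei of each library, against 8.52% of 2746 genes in the library labelled WT and 11.0% of 2636 genes in that labelled KO. None of the 4 was lower by 2-fold, against 9.65% and 6.83% of all genes. *Kcnj2* lay at 2.01-fold in the library labelled WT and fell below the limit under TMM scaling. Without the junction nuclei, 1 of the 4 passed in the library labelled KO. After thinning to 1000 UMIs neither did, with log2 ratios of 0.54 for *Kcnq5* and 0.79 for *Kcnj2*.

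**Figure D3:**
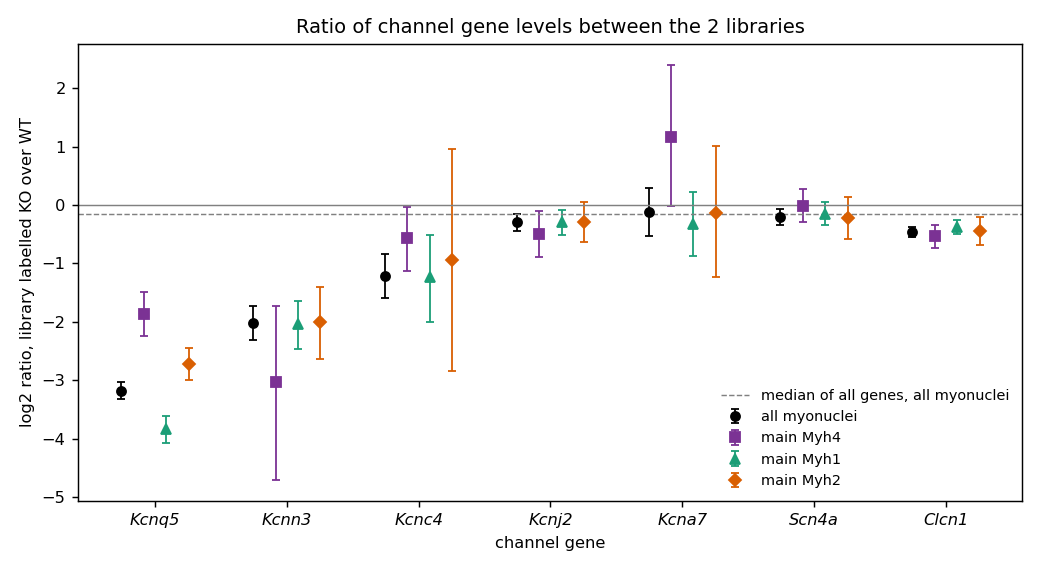
Log2 ratio of the library labelled KO over that labelled WT (vertical axis) for the 7 channel genes in all myonuclei and by main *Myh* gene, with exact 95% intervals for counting error. The dashed line is the median of all genes at -0.15. *Kcnq5* differed between fibre types, from -1.86 in *Myh4* to -3.84 in *Myh1* nuclei, and the intervals of *Scn4a* covered the line in each.

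The NMJ-like nuclei, the synaptic nuclei of the fibre, had the highest *Kcnq5* level of the classes named here. The cluster held 15 nuclei labelled WT and 8 labelled KO and was named from *Chrne*, *Colq*, *Musk*, *Etv5*, *Chrna1*, *Ache* and *Prkar1a*. Each of the 15 nuclei labelled WT had *Kcnq5* UMIs, from 2 to 55 with a median of 9. The level was 5751.6 CPM against 394.4 CPM in the other myonuclei, 14.6-fold higher, with a log2 ratio of 3.87 (3.69 to 4.04). The highest counts in single nuclei were 55, 55, 44 and 40 of the 290 UMIs, and a nucleus with 55 held 19% of them. The interval covers counting error only and leaves out this gathering.

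Of the 8 NMJ-like nuclei labelled KO, 5 had *Kcnq5* UMIs, numbering 4, 6, 8, 9 and 22. The 3 without a UMI had total depths of 1047 to 1222. The level was 2251.2 CPM against 41.9 CPM elsewhere, 53.7-fold higher, and 44.9% of the 49 UMIs came from 1 nucleus. Between the libraries the ratio in NMJ-like nuclei was -1.35 (-1.82 to -0.91), whereas outside the junction clusters it was -3.24 (-3.39 to -3.09). These intervals did not overlap, but they rest on 15 and 8 nuclei that share their library and are not replicates.

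*Scn4a* and *Clcn1* were also higher in NMJ-like nuclei. *Scn4a*, whose channel is concentrated at the endplate, had 357.0 against 104.2 CPM in the library labelled WT and 275.7 against 91.6 CPM in that labelled KO, on 18 and 6 UMIs. *Clcn1* had 1209.8 against 272.5 CPM and 551.3 against 201.2 CPM, on 61 and 12 UMIs. *Kcnc4* and *Kcna7* had no UMI in any NMJ-like nucleus. With 50421 and 21766 UMIs in the cluster a count of 0 allowed levels of up to 59.5 and 137.8 CPM, above the levels of both genes in the other myonuclei, so a difference was not detectable at this depth.

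The myotendinous junction (MTJ)-like nuclei, 25 and 33 in number, had 1 *Kcnq5* UMI in each library. Under the WT label they were low in *Kcnq5*, at 9.14 CPM against 394.4 CPM in the other myonuclei, a log2 ratio of -5.43 (-10.74 to -2.95). Under the KO label they had 8.84 against 41.9 CPM, a ratio of -2.24 (-7.55 to 0.24), within counting error. *Clcn1* had 10 UMIs and 91.4 CPM in those labelled WT, with a ratio of -1.58 (-2.64 to -0.69). *Kcnj2* had 2 UMIs in them and a ratio of -2.29 (-5.34 to -0.44).

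**Figure D4:**
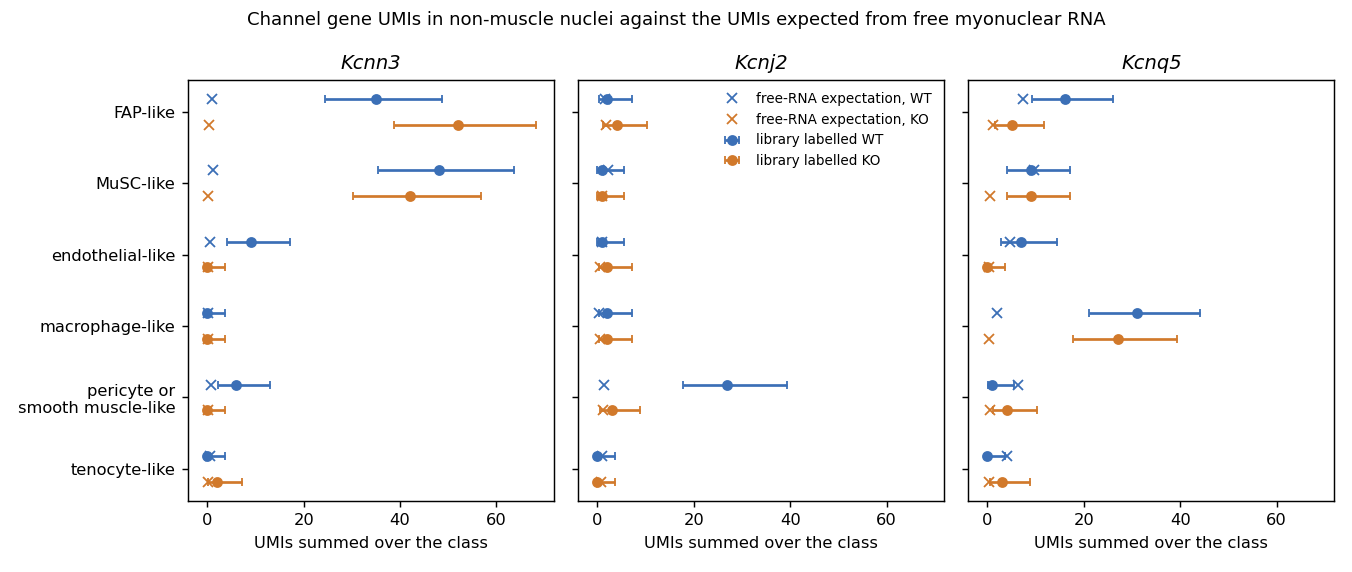
UMIs of *Kcnn3*, *Kcnj2* and *Kcnq5* summed over each non-muscle class (points, horizontal axes) with exact Poisson 95% intervals, in the libraries labelled WT (blue) and KO (orange). Crosses are the UMIs expected if free RNA from myonuclei brought them at the ratio to myonuclear markers seen in myonuclei. *Kcnn3* lay far above the crosses in FAP-like and MuSC-like nuclei of both libraries.

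Outside the fibre, *Kcnn3* was the channel gene with the clearest expression. Muscle stem cell (MuSC)-like nuclei had 48 and 42 UMIs, or 211.7 and 268.5 CPM, where free myonuclear RNA would have given 1.28 and 0.181 UMIs. This level was above that of any fibre type in its own library. With nuclei assigned by their own marker UMIs it was 104.3 CPM (38.3 to 227.0) under the WT label, an interval that takes in the *Myh2* level of 84.5 CPM, and 212.9 CPM (113.4 to 364.1) under the KO label. After thinning, 19.2% of MuSC-like nuclei of each library had a *Kcnn3* UMI (12.2 to 28.1 and 10.9 to 30.1), whereas macrophage-like nuclei had none in 97 and 60 nuclei. The median depths were 1213 and 1282 UMIs in the former and 1369 and 1780 in the latter. The ratio between the libraries in MuSC-like nuclei was 0.34 (-0.29 to 0.97).

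Fibro-adipogenic progenitor (FAP)-like nuclei, the connective tissue cells of muscle, had 35 *Kcnn3* UMIs in 26 of 489 nuclei labelled WT and 52 UMIs in 30 of 333 nuclei labelled KO. The levels were 31.3 and 72.9 CPM, a log2 ratio of 1.22 (0.57 to 1.88). At equal depth the shares of FAP-like nuclei with a UMI were 3.69% (2.08 to 6.01) and 4.41% (2.30 to 7.58), which overlapped. Endothelial-like nuclei had 9 UMIs in 8 of 224 nuclei labelled WT and 0 in 129 nuclei labelled KO, where a count of 0 allows up to 11.2 CPM.

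*Kcnj2* had 27 UMIs in 16 of 159 pericyte or smooth muscle-like nuclei of the library labelled WT, against 1.45 expected from free RNA. The library labelled KO had 3 UMIs in 116 nuclei. The levels were 73.7 and 10.6 CPM, a log2 ratio of -2.80 (-5.17 to -1.10). The class joined 2 clusters. In the larger, whose leading genes included *Rgs5* and *Slc35f1*, there were 18 and 3 UMIs in 148 and 110 nuclei, and in the smaller, led by *Acta2*, *Myh11* and *Myocd*, 9 and 0 UMIs in 11 and 6 nuclei.

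*Kcnq5* UMIs in macrophage-like nuclei lay in 7 nuclei of each library. They numbered 31 and 27, against 1.89 and 0.273 expected from free RNA, and 17 and 21 of them lay in 1 nucleus of each library. With nuclei assigned by their own marker UMIs, the levels of 177.1 and 219.7 CPM became 12.6 and 10.3 CPM. *Kcnc4*, *Kcna7*, *Scn4a* and *Clcn1* had at most 5 UMIs in any named non-muscle class of either library. For these 4 genes the interval of the count lay above the free RNA expectation in no named class. MuSC-like nuclei had 9 *Kcnq5* UMIs in each library, against 9.75 and 0.592 expected.

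The other genes of membrane excitability were read from a list of 75 genes, of which 24 had at least 200 UMIs in myonuclei. None of the 24 was lower by 2-fold or more in the library labelled KO and 1 was higher, against 2.68% and 3.06% of all genes, and their median log2 ratio was -0.04. The gene that was higher was *Kcnb2*, which encodes the delayed rectifier subunit KV2.2, with 10 and 306 UMIs and a log2 ratio of 4.81 (3.91 to 5.89). The lowest were *Clcn3*, an endosomal chloride-proton exchanger, at -0.85, *Ano5*, an anoctamin mutated in limb-girdle muscular dystrophy, at -0.56, *Scn4b*, a sodium channel beta subunit, at -0.52, *Ank1* at -0.48 and *Abcc9*, the sulfonylurea receptor subunit of KATP channels, at -0.26. Among the highest after *Kcnb2* were the scramblase *Ano6* at 0.67 and the large-conductance calcium-activated channel *Kcnma1* at 0.63.

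Close relatives of *Kcnn3* and *Kcnc4* differed little. *Kcnn2*, which encodes SK2, had 3187 and 3249 UMIs and a log2 ratio of -0.10 (-0.17 to -0.03). *Kcnc1*, which encodes KV3.1, had 938 and 1161 UMIs and a ratio of 0.18 (0.06 to 0.31). The inward rectifier gene *Kcnj12*, a relative of *Kcnj2*, had a ratio of 0.24 (0.05 to 0.43). By list, the measured genes were 2 of 6 sodium channel subunits, 4 of 21 voltage-gated potassium channels, 2 of 6 calcium-activated potassium channels, 3 of 9 inward rectifiers and KATP subunits, 6 of 10 chloride channels and anoctamins, 4 of 5 sodium pump genes and 3 of 3 ankyrins. None of the 9 accessory subunits of potassium channels and none of the 6 two-pore channels reached 200 UMIs.

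Denervated fibres are known to express *Kcnn3* together with immature receptor genes, so a list of 10 genes of the denervation response was read beside it. Of these, 5 had at least 200 UMIs, with log2 ratios of 1.20 for *Runx1*, 0.95 for *Ncam1*, 0.79 for *Musk*, 0.62 for *Gadd45a* and -0.21 for *Hdac4*. *Runx1* was higher by 2-fold or more, against 3.06% of all genes, and the median of the 5 was 0.79. None of the 5 encodes a subunit of the acetylcholine receptor. The other 5, which included *Chrna1*, *Chrng*, *Chrnd* and *Myog*, had at most 37 UMIs in either library. The receptor genes *Chrna1*, *Chrng* and *Chrnd* had 10, 3 and 7 UMIs under the WT label and 9, 3 and 1 under the KO label. *Kcnn3*, lower in the library labelled KO, went against the direction of 4 of the 5 measured genes, and their part in its level was not tested.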

How the data were processed

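The authors deposited raw UMI counts per gene and barcode for 2 libraries, made with Cell Ranger 7.0.0 on mm10 per the processing notes, which also name Seurat 5.0.3. Whether intronic reads were counted is not given in the sources used here. The paper names a Chromium 3′ kit and the labels the Multiome kit. The values are whole counts, not normalized, and were summed here per class and expressed per 1000000 UMIs (CPM).

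Nuclei with 200 to 5000 genes and at most 5% mitochondrial UMIs were kept, 9 and 18 failing the latter. Doublets were scored with Scrublet (scanpy 1.11.5), and the top scores were removed at 0.8% per 1000 barcodes, 115 and 134 nuclei, because its own threshold marked 32 and 2. More nuclei were kept than in the paper, whose doublet caller and filters were not repeated. Libraries were joined by RPCA in Seurat 5.3.0 (R 4.3.3; 2000 variable genes, 30 components, resolution 0.5), leaving out 372 genes that differed 2-fold and 82 channel genes. Of 18 clusters, 7 were myonuclear, with at least 30000 CPM of 10 markers. A class was named with at least 3 markers raised 4-fold in 10% of nuclei and at least 1 among the top 10 genes, a rule set after the clusters were seen. The classes unnamed by it were left out.

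Intervals are exact: conditional on the summed counts for ratios, Poisson for sums and Clopper-Pearson for shares, at 95%. A count of 0 was given a limit of 3 counts. No test was run, since each genotype is 1 library. Free RNA was predicted from the 10 myonuclear markers. The ratio intervals were tried on simulated sums drawn as Poisson counts, which leave out the gathering of UMIs in single nuclei. Thinning used seed 1 and 1000 UMIs, and was checked on real nuclei only for returning the depth set. Computation used Python 3.11.15, numpy 2.4.6, scipy 1.17.1, pandas 2.3.3 and, for TMM factors, edgeR 4.0.16. Gene positions are from GENCODE M21, which holds 32235 of 32285 identifiers, and promoter stretches from RefSeq, matched by symbol for all 7 genes.

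The 7 genes, the lists and the settings were chosen with earlier results of these data known. Named were the 7 genes, the 5 highest and 5 lowest of the other excitability genes with at least 200 UMIs, the measured denervation genes, *Bcl6*, and for each of the 7 the 3 genes most like it. Relatives of the channel genes were named after their values were seen. Some genes these rules name are not reported here. Alternatives changed filters, doublet removal, scaling, thinning, clustering, weighting, the myosin call and, chosen after seeing the data, the junction nuclei.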

Additional observations from a re-analysis of the deposited data

Results flagged for a closer look

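*Kcnn3* stood apart because its ratio between the libraries had opposite signs in different nuclei. In FAP-like nuclei its log2 ratio of the library labelled KO over that labelled WT was 1.22 (0.57 to 1.88), and in myonuclei it was -2.02 (-2.32 to -1.73). The counts behind the former were 35 and 52 UMIs, with at most 5 in any nucleus of either library. At equal depth the shares of FAP-like nuclei with a UMI had intervals that overlapped. With nuclei assigned by their own marker UMIs the levels were 42.5 CPM (32 to 55.4) under the WT label and 72.3 CPM (55.1 to 93.3) under the KO label. These intervals overlapped as well. With 1 library per genotype, the difference between the classes was not tested.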

How the results depend on the processing

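Over all alternatives the log2 ratios between the libraries in myonuclei ranged from -3.34 to -2.96 for *Kcnq5*, from -2.13 to -1.85 for *Kcnn3* and from -1.21 to -0.75 for *Kcnc4*, and the only sign that turned was that of *Kcna7*, between -0.14 and 0.09. *Kcnq5* was -3.03 with median-of-ratios scaling, -3.34 as a mean over nuclei and -2.96 with the main *Myh* groups weighted equally. *Kcnc4* was -0.75 with equal weights. *Scn4a* was -0.05 with median-of-ratios scaling, and *Clcn1* -0.34 with TMM and -0.32 with median-of-ratios scaling. Of the genes past 2-fold between *Myh2* and *Myh4* nuclei, 1 was left in the library labelled WT under TMM scaling and 1 in that labelled KO without the junction nuclei. Thinning moved *Kcnq5* in *Myh1* nuclei to -4.11 and *Kcnc4* there to -0.15, *Kcnn3* in *Myh2* nuclei to -2.86 and *Scn4a* in *Myh4* nuclei to 0.38, and the loss of UMIs by thinning leaves few counts for *Kcnc4*. In the non-muscle classes, *Kcnn3* in MuSC-like nuclei labelled WT was 104.3 CPM with nuclei assigned by their own markers. Without doublet removal *Kcnq5* in FAP-like nuclei labelled WT was 29.3 CPM. The cause of these shifts was not tested. No paired analysis was possible because there is 1 library per genotype, and no replicate could be left out.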

Other observations

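Across 8 points, the 4 myosin groups of myonuclei in each library, the genes whose levels on the log2(CPM + 1) scale were most like those of *Kcnq5* were *Tmem135*, *Acad11* and *Sos2* (Pearson r = 0.98 for each). For *Kcnn3* they were *Cenpv*, *Nmrk2* and *Yes1* (0.98), and for *Kcnc4* *Nvl*, *Oga* and *Prxl2c* (0.99). For *Kcnj2* they included *Acaca* and *Gm11266* (0.99), for *Kcna7* *Kat6b* (0.94), *Gpat3* and *Ndufs5* (0.93), for *Scn4a* *Kdm5a* (0.98), *Vdac3* (0.96) and *Tmtc1* (0.95), and for *Clcn1* *Dop1a* (0.97), *Akap10* and *Trmt1l* (0.96). Among the 7 genes, *Kcnq5* and *Kcnn3* were the closest pair (0.88), and *Kcnc4* with *Kcnj2* the farthest (-0.55). The points share 2 libraries and their depth, and the best of 4524 genes are high by selection.

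The library labelled KO held 435 myonuclei of at least 1000 UMIs without a *Meg3* UMI and 2581 with one. *Kcnq5* stood at 58.4 CPM (45.6 to 73.7) in the former and 45.1 CPM (40.7 to 49.9) in the latter. Both were far below its levels in the library labelled WT. Those were 430.5 CPM (416.3 to 445.1) in nuclei without *Meg3* and 317.0 CPM (279.2 to 358.5) in nuclei with it, with intervals that did not overlap. *Kcnn3* had 12.3 and 13 CPM under the KO label. The median depths under that label were 2353 and 2815 UMIs.

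Under the KO label, 2 of the 17 nuclei outside the junction clusters with 5 or more *Kcnq5* UMIs had a UMI of *Chrne*, *Colq* or *Etv5* (11.8%, 1.46 to 36.4), against 34 of 3033 with fewer (1.12%, 0.778 to 1.56). The median depths were 5372 and 2703 UMIs. Under the WT label the same counts were 4 of 266 and 16 of 2109 nuclei.

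Some excitability genes under the minimum of 200 UMIs, chosen after their values were seen, differed too. *Kcnj3* had 56 and 11 UMIs and *Kcnh7* 75 and 20, but 27 and 63 of the UMIs labelled WT came from 1 MTJ-like nucleus each.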
